A study of Drosophila melanogaster with 4 samples.

Results

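The Beat, Side and axon guidance genes of the fly were followed in RNA from purified nuclei of heads of Drosophila melanogaster. Members were taken by gene symbol. They were the 14 rows whose symbol starts with beat-, the 8 rows named side or starting with side-, and 40 listed guidance receptors, ligands and adhesion molecules, which made 62 of the 17137 genes in the table. Of these, 60 passed the filter on low counts and were tested with 8246 genes in all.

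The nuclei came from flies aged 10 days that carried UAS-UNC84, a nuclear envelope tag, under a split-Gal4 driver. Here Gal4, the activator of the tag, is made in separate parts by separate promoters, so the tag marks cells in which both are in use. The first genotype was VAChT:VGlut split-Gal4/UAS-UNC84, which pairs the vesicular transporters for acetylcholine and glutamate. It was set against VAChT:VGAT split-Gal4/UAS-UNC84, which pairs the acetylcholine transporter with that for GABA. Both genotypes carried the VAChT part of the driver and the tag, none was treated, and each gave 2 libraries of poly(A) RNA from pooled heads. Nuclei were captured by the tag (the INTACT method), and the libraries were strand-specific. No untagged or input library was analysed here, so nuclei bound without the tag are not measured.

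The totals were 2023040 and 2556988 counts in VAChT:VGlut libraries, against 1937871 and 1490390 counts in VAChT:VGAT libraries, and 3 counts stood for 1.17 to 2.01 CPM (counts per 1000000, computed over the scaled library sizes). Libraries of a genotype were close to each other, with a chi-square per degree of freedom of 1.22 in VAChT:VGlut and 1.19 in VAChT:VGAT, against 4.3 to 6.0 between genotypes. Separate crosses or fly collections are not named in the labels, so p-values measure the spread between these libraries alone, which may be technical. The driver gene VGlut was higher in VAChT:VGlut nuclei (log2 fold change 0.58, adjusted p = 1.1e-10), whereas VGAT (0.10, adjusted p = 0.57) and VAChT (0.05, adjusted p = 0.68) did not pass the test of edgeR. Markers of the labelled cell type, neurons, were present in every library, and so were markers of glia, photoreceptors, muscle and fat body. In such bulk RNA, fewer cells of a type and less RNA per cell cannot be told apart.

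Axon guidance molecules steer growing axons towards or away from their targets, and many of them stay in use at mature synapses. Slit is a secreted repellent read by the Robo receptors. Netrins attract axons through Frazzled and repel them through Unc-5, and Semaphorins act through Plexins. The Beat and Side proteins are immunoglobulin-superfamily members that bind each other across cells. Beat-Ia and Side were found in motor axons and their pathway, and later work paired Side-IV with Beat-II and Side-VI with Beat-V proteins. N-cadherin, Dscam, Teneurins, Fasciclins, the irre module and the Neurexin-Neuroligin pair mediate contact between neurites.

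Among the 60 genes tested, 8 differed between genotypes at an adjusted p under 0.05, and all 8 were higher in VAChT:VGlut nuclei. These were CadN, Nlg2, Nrx-1, side-VI, Ten-a, Sema1a, Ten-m and Dscam2, with folds between 1.12 and 1.31. They form 13.3% of the members tested, against 11.8% of all genes tested, of which 6.22% were higher and 5.54% were lower in VAChT:VGlut nuclei. The share of members called was therefore close to that of all genes. The 8 all have exonic lengths of 3928 bases or more, and in that length group 17.2% of all genes were higher and 2.09% lower, so the single direction is not particular to the members. With the trend on exonic length removed, 3 members passed, 2 higher and 1 lower. Over all genes 513 were higher and 457 lower, and with library size as the only scaling the numbers were 398 higher and 575 lower. Under that scaling 7 members passed, 6 higher and 1 lower. The count of 8 was 7 without the first VAChT:VGlut library and 5 without the second, and 5 without either VAChT:VGAT library. It was 4 with DESeq2 and 0 with a biological coefficient of variation of 0.1 for every gene, in place of the fitted 2.18%. Among the members, no Beat, Slit, Robo, Netrin, irre module or receptor phosphatase gene passed the test, nor did Fas2 or Fas3.

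The members differed more from each other in level than between genotypes. Levels of different genes are given here as CPM per kilobase of exon, averaged over the 4 libraries. Exon bases shared with another gene are included. For Lar this gives 10.2 CPM per kb, against 61.8 CPM per kb over the exon bases it does not share. Nrx-1 was at the top with 81.7 CPM per kb, followed by klg with 61.1, beat-IIa with 52.1, Ten-a with 46.6, Dscam2 with 42.5, sli with 41.9 and Dscam4 with 40.7 CPM per kb. Nrx-1 and klg were apart from the genes next to them in every library, whereas from beat-IIa down to Dscam4 each gene overlapped the next over the 4 libraries. At the low end stood PlexB with 4.88, robo2 with 2.85, NetA with 2.55 and Nlg1 with 0.711 CPM per kb, of which robo2 and NetA overlapped. The median over all 62 genes was 19.5 CPM per kb, and over the 60 tested it was 20.2, against 17.2 over all genes tested.

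**Figure D1:**
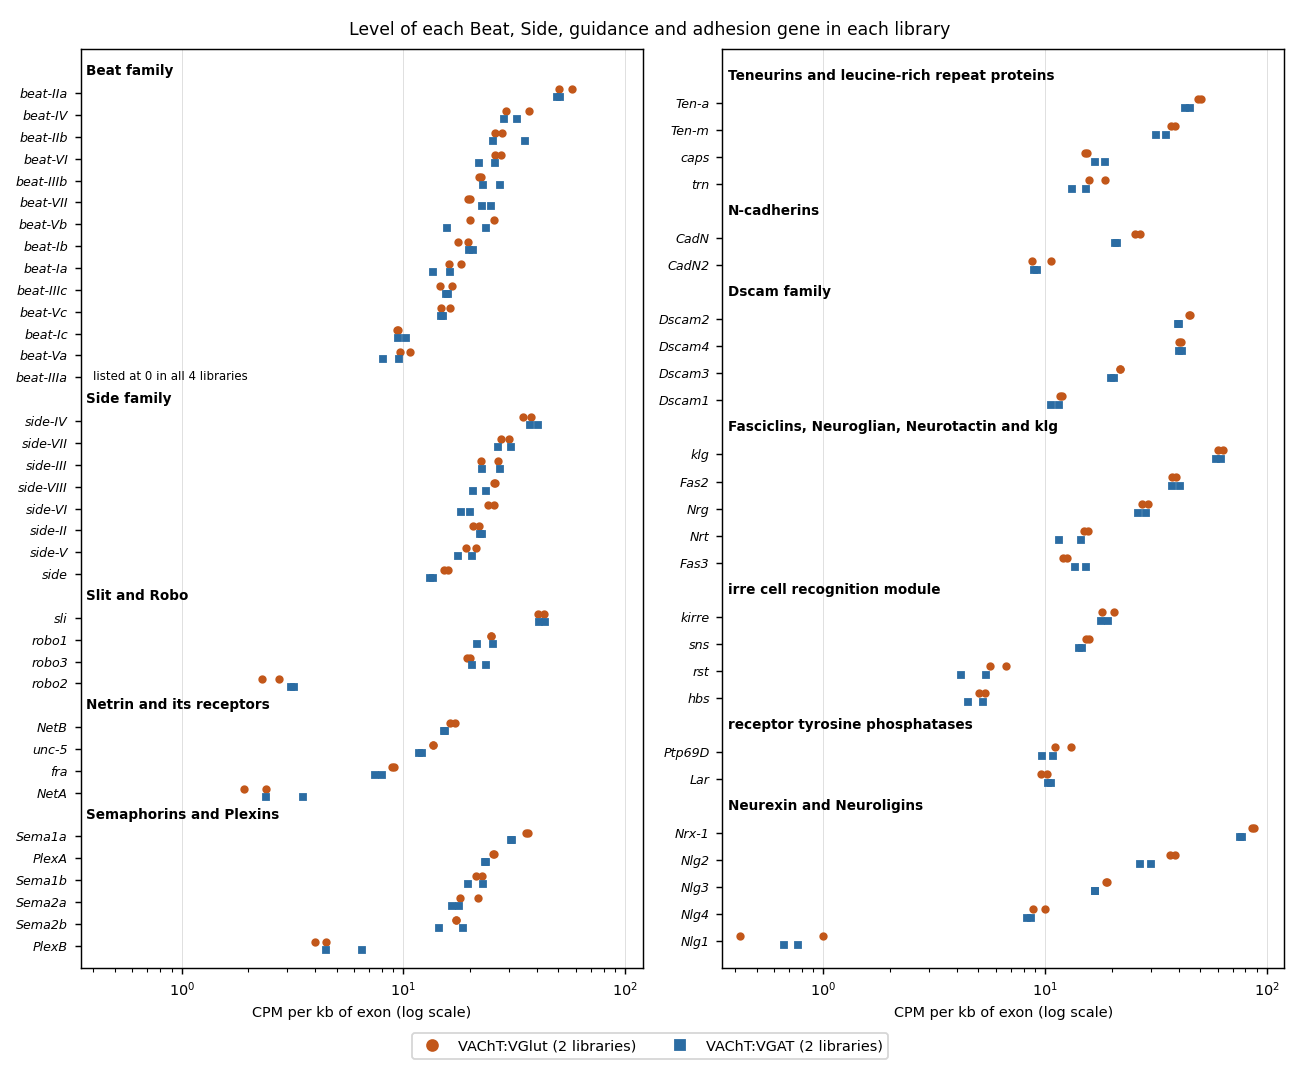
Level of each gene in each library, as CPM per kb of exon on a log axis, with genes grouped by role and ordered by mean level. Exon bases shared with another gene are included, which sets Lar low. Circles are the 2 VAChT:VGlut libraries and squares the 2 VAChT:VGAT libraries. The span from Nlg1 near 0.711 to Nrx-1 near 81.7 CPM per kb is far wider than the gap between the symbols of any gene.

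A pair of genes could not be tested. Nlg1, one of the neuroligins, had 5 and 15 counts in VAChT:VGlut libraries, against 9 and 6 counts in VAChT:VGAT libraries. The counts overlap, and both genotypes lie a little above the level that 3 counts stand for. beat-IIIa (chr2L:17131024-17173118, plus strand, dm6) was listed at 0 in all 4 libraries. All of its 4457 exon bases are shared with CG34106, which has the same span and strand and is also at 0 in all 4. The counting command sets no option for reads that overlap more than one gene, and featureCounts leaves such reads unassigned by default. The 0 of beat-IIIa therefore gives no measure of its expression.

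Lar, a receptor tyrosine phosphatase of axons and presynaptic sites, is touched by the same counting rule. Only 16.4% of its exon bases are its own, and the rest are shared with CG46244, which lies inside the Lar span on the same strand and is at 0 in all 4 libraries. Lar had 99.0 and 105 CPM in VAChT:VGlut libraries, against 109.5 and 107 CPM in VAChT:VGAT libraries. For Lar the log2 fold change was -0.08 (SE 0.11, adjusted p = 0.75, edgeR). Its level was 10.2 CPM per kb of all its exons and 61.8 CPM per kb of the exon bases it does not share. Exon bases were shared by 6 members in all. The own share was 80.0% in robo2, 95% in Ten-m, 95.7% in Ten-a and 98.8% in Nrx-1.

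The synaptic adhesion pair Neurexin and Neuroligin held 2 of the 8 genes called. Nrx-1, the presynaptic neurexin (chr3R:22468512-22486969, plus strand), had 920 and 937 CPM in VAChT:VGlut libraries, against 826 and 811 CPM in VAChT:VGAT libraries. Both VAChT:VGlut values lie above both VAChT:VGAT values. This held for 23.6% of all genes tested, and in a called gene it largely follows from the call. The means were 928 ± 12.5 CPM in VAChT:VGlut and 819 ± 10.9 CPM in VAChT:VGAT (SD, n = 2 each), the log2 fold change was 0.18 (SE 0.04) and the adjusted p of edgeR was 0.0011. Nlg2 (chr2L:6874900-6906656, plus strand) had 207 and 217 CPM in VAChT:VGlut libraries, against 170 and 152 CPM in VAChT:VGAT libraries. Its values do not overlap either, and its fold of 1.31 was the largest of the 8. The log2 fold change of Nlg2 was 0.39 (SE 0.08, adjusted p = 0.00029, edgeR).

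Nlg3 had 127 and 126 CPM in VAChT:VGlut libraries, against 112 and 112 CPM in VAChT:VGAT libraries, and a log2 fold change of 0.17 (SE 0.10, adjusted p = 0.33, edgeR). Nlg4 had 62.8 and 55.2 CPM in VAChT:VGlut libraries, against 51.7 and 53.9 CPM in VAChT:VGAT libraries, with a log2 fold change of 0.15. Neither of these neuroligins passed the test. Their libraries did not overlap, which held in this direction for 23.6% of all genes tested. The neuroligins were far apart in level. Per kilobase, Nlg2 was between 38.8 and 87.7 times as high as Nlg1 in single libraries, and Nrx-1 was between 2.28 and 2.82 times as high as Nlg2.

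CadN, the classical N-cadherin of fly neurons (chr2L:17647053-17778340, minus strand), had the smallest adjusted p of all members. It measured 386 and 364 CPM in VAChT:VGlut libraries, against 304 and 296 CPM in VAChT:VGAT libraries. The lowest VAChT:VGlut library lies well above the highest VAChT:VGAT library. The means were 375 ± 15.3 CPM in VAChT:VGlut and 300.4 ± 5.78 CPM in VAChT:VGAT (SD, n = 2 each), a log2 fold change of 0.31 (SE 0.06, adjusted p = 0.00013, edgeR). Its neighbour CadN2, which lies 8.63 kb away on the same strand, had 84.9 and 69.9 CPM in VAChT:VGlut libraries, against 71.1 and 73.2 CPM in VAChT:VGAT libraries. The libraries of CadN2 overlap, and its log2 fold change was 0.09 (SE 0.13, adjusted p = 0.76, edgeR). CadN was between 2.25 and 2.89 times as high as CadN2 per kilobase. The difference between the responses of these neighbours was not tested.

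The Teneurins are transmembrane proteins that match synaptic partners, and both passed the test. Ten-a (chrX:12043698-12335214, plus strand) had 858 and 833 CPM in VAChT:VGlut libraries, against 764 and 726 CPM in VAChT:VGAT libraries. The genotypes do not overlap, and Ten-a differed by 0.18 on the log2 scale (SE 0.04, adjusted p = 0.0026, edgeR). Ten-m (chr3L:22293044-22407863, minus strand) had 485 and 507 CPM in VAChT:VGlut libraries, against 416 and 462 CPM in VAChT:VGAT libraries. Its second VAChT:VGAT library came near the lower VAChT:VGlut library without reaching it. The log2 fold change of Ten-m was 0.19 (SE 0.06, adjusted p = 0.016, edgeR), and with library size as the only scaling its adjusted p was 0.067. In edgeR, Ten-m did not pass without the second VAChT:VGlut library (adjusted p = 0.24) or the first VAChT:VGAT library (0.10 on the log2 scale, adjusted p = 0.50), and Ten-a did not pass without the second VAChT:VGAT library (adjusted p = 0.092). The leucine-rich repeat proteins trn and caps, which act in target choice, did not pass. trn had a log2 fold change of 0.28 (adjusted p = 0.29) and caps of -0.20 (adjusted p = 0.37, edgeR).

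Of the semaphorin group, 1 of 6 genes passed. Sema1a (chr2L:8542147-8672041, plus strand), a transmembrane semaphorin that signals through PlexA, had 372 and 364 CPM in VAChT:VGlut libraries, against 315 and 313 CPM in VAChT:VGAT libraries. The libraries of each genotype are close together and the genotypes do not overlap. Sema1a had a log2 fold change of 0.23 (SE 0.06, adjusted p = 0.0074, edgeR), and it just missed the threshold without the first VAChT:VGlut (adjusted p = 0.063), first VAChT:VGAT (0.073) or second VAChT:VGAT library (0.052). PlexA had 268 and 273 CPM in VAChT:VGlut libraries, against 250 and 247 CPM in VAChT:VGAT libraries, with a log2 fold change of 0.12 (adjusted p = 0.30, edgeR). PlexB, the receptor of the secreted semaphorins, had 31.7 and 28.2 CPM in VAChT:VGlut libraries, against 31.7 and 45.9 CPM in VAChT:VGAT libraries, with a log2 fold change of -0.35 (SE 0.19, adjusted p = 0.28, edgeR). The lower VAChT:VGAT value of PlexB is about equal to the higher VAChT:VGlut value, so its fitted difference rests on the second VAChT:VGAT library. The other semaphorins, Sema1b, Sema2a and Sema2b, lay between 0.03 and 0.22 on the log2 scale, and none was called. PlexA was between 3.57 and 6.42 times as high as PlexB per kilobase.

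The 4 Dscam genes, immunoglobulin-superfamily receptors of neurites, held 1 called gene. Dscam2 (chr3L:7159199-7189931, minus strand) had 576 and 584 CPM in VAChT:VGlut libraries, against 515 and 519 CPM in VAChT:VGAT libraries. The spread within a genotype was small beside the gap between them. The log2 fold change was 0.17 (SE 0.05, adjusted p = 0.019, edgeR), and 0.086 was the adjusted p with library size as the only scaling. Dscam2 did not pass in edgeR without the second VAChT:VGlut (adjusted p = 0.14), first VAChT:VGAT (0.17) or second VAChT:VGAT library (0.079). Dscam1, known for its many splice forms, had 310 and 314 CPM in VAChT:VGlut libraries, against 305 and 282 CPM in VAChT:VGAT libraries, with a log2 fold change of 0.08 (SE 0.07, adjusted p = 0.50, edgeR). Counts per gene do not separate its splice forms. Dscam3 had a log2 fold change of 0.11 and Dscam4 of -0.01, and neither passed.

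In the Side family, 1 of 8 genes passed. side-VI (chr3R:10972381-11050175, plus strand) had 177 and 189 CPM in VAChT:VGlut libraries, against 147 and 133 CPM in VAChT:VGAT libraries. The genotypes do not overlap. The means were 183 ± 8.65 CPM in VAChT:VGlut and 140.3 ± 10.0 CPM in VAChT:VGAT (SD, n = 2 each), the log2 fold change was 0.38 (SE 0.09) and the adjusted p of edgeR was 0.0012. With DESeq2 side-VI did not pass (adjusted p = 0.053). Without the second VAChT:VGlut library, which leaves 1 library of that genotype, the log2 fold change of side-VI was 0.33. side, the founding member and a partner of Beat-Ia, had 186 and 178 CPM in VAChT:VGlut libraries, against 160 and 154 CPM in VAChT:VGAT libraries. Its values do not overlap, but its log2 fold change of 0.20 (SE 0.09) had an adjusted p of 0.12 in edgeR. side-VIII, also without an overlap, had a log2 fold change of 0.21 (adjusted p = 0.19, edgeR). Such a separation in this direction held for 23.6% of all genes tested. The other 5 Side genes lay between -0.11 and 0.10 on the log2 scale, and the family median was 0.05. side-IV was the highest of the family per kilobase with 37.5 CPM per kb, and side the lowest with 14.5.

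None of the 13 Beat genes tested passed the threshold, and their log2 fold changes lay between -0.26 and 0.27 with a median of 0.05. The 2 ends were beat-VII and beat-Vb. beat-Ia, the partner of Side, had 46.2 and 52.0 CPM in VAChT:VGlut libraries, against 38.9 and 46.6 CPM in VAChT:VGAT libraries. These values overlap, and the log2 fold change was 0.22 (SE 0.16, adjusted p = 0.47, edgeR). side and beat-Ia were at about the same level per kilobase, with ratios between 0.811 and 1.01 in single libraries.

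beat-VII is named after its values were seen. It had 120 and 123 CPM in VAChT:VGlut libraries, against 152 and 139 CPM in VAChT:VGAT libraries. It stood out among the Beat genes as lower in both VAChT:VGlut libraries with an interval that lay below 0. Its log2 fold change was -0.26 (SE 0.10, 95% interval -0.46 to -0.07, unadjusted p = 0.0076, adjusted p = 0.060, edgeR). It passed the threshold as a lower gene with library size as the only scaling (adjusted p = 0.029) and with a mean count of at least 50 as the filter (adjusted p = 0.025). It did not pass with no filter (adjusted p = 0.11) or with DESeq2 (0.37). Without the first or second VAChT:VGlut library its adjusted p in edgeR was 0.24 or 0.21, and without the first or second VAChT:VGAT library it was 0.48 or 0.0585, with log2 fold changes between -0.19 and -0.32. Of the 60 members tested, beat-Vb varied most between libraries of a genotype, with a coefficient of variation of 17.7% between VAChT:VGlut libraries and 28.4% between VAChT:VGAT libraries. The medians over the members tested were 4.29% in VAChT:VGlut and 5.85% in VAChT:VGAT. The Beat proteins reported to bind Side-VI, the Beat-V group, had log2 fold changes of 0.18 for beat-Va, 0.27 for beat-Vb and 0.05 for beat-Vc, none of them called. Those reported to bind Side-IV had 0.12 for beat-IIa and -0.15 for beat-IIb, against -0.11 for side-IV itself, and again none was called.

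**Figure D2:**
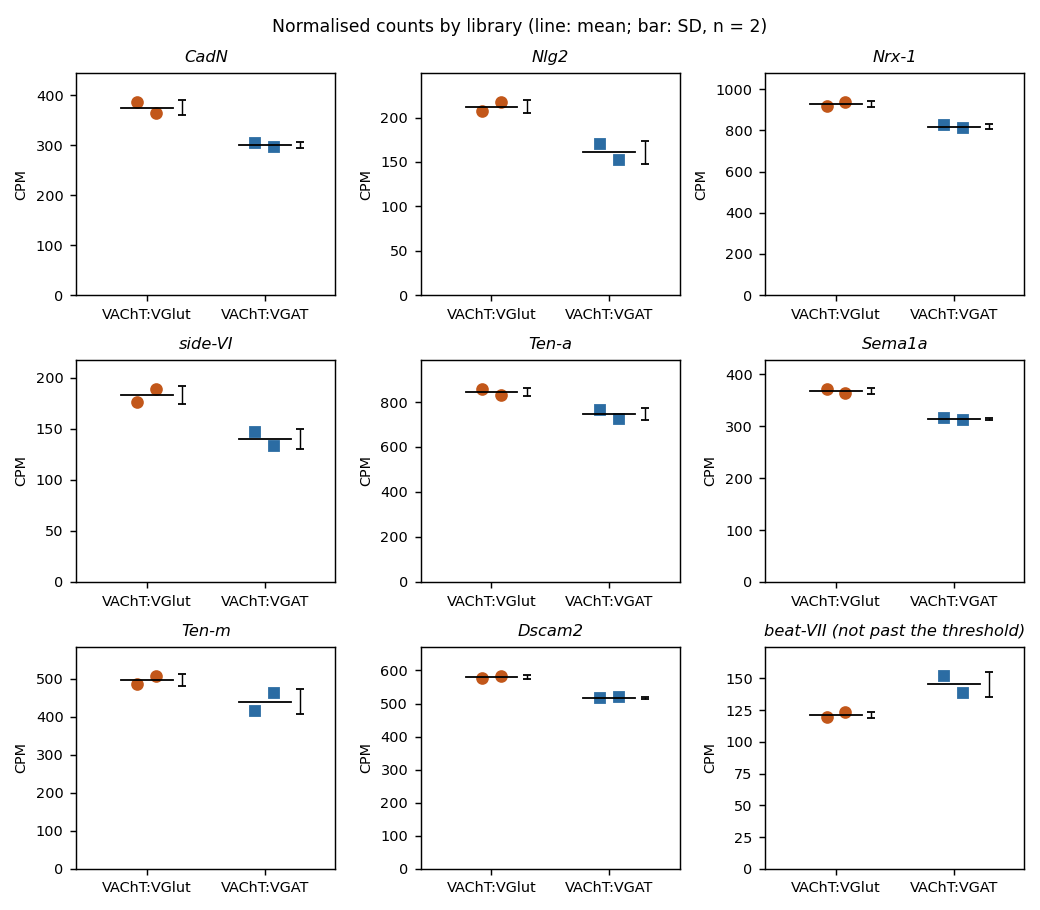
Normalised counts (CPM, axes from 0) in each library for the 8 genes past the threshold and for beat-VII, which did not pass. Circles are VAChT:VGlut libraries and squares VAChT:VGAT libraries, with lines at the means and bars for the SD (n = 2). In the 8 genes, which a test on these same libraries picked, both circles lie above both squares, by folds of 1.12 to 1.31. In beat-VII, named after its values were seen, both lie below.

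Slit and its receptors did not pass the test. sli had 387 and 414 CPM in VAChT:VGlut libraries, against 417 and 392 CPM in VAChT:VGAT libraries. The libraries of the genotypes overlap, and the log2 fold change was -0.01 (SE 0.06, 95% interval -0.13 to 0.10, adjusted p = 0.94, edgeR). robo1 had 169 and 169 CPM in VAChT:VGlut libraries, against 145 and 173 CPM in VAChT:VGAT libraries, with a log2 fold change of 0.10 (SE 0.09, adjusted p = 0.57, edgeR). The VAChT:VGAT libraries of robo1 lie on either side of both VAChT:VGlut libraries. robo3 had a log2 fold change of -0.14 (adjusted p = 0.38, edgeR) and robo2 of -0.34 (adjusted p = 0.49, edgeR). The robo2 value rests on 34 and 36 counts in VAChT:VGlut libraries, against 39 and 29 counts in VAChT:VGAT libraries. Scaled for depth, robo2 had 17.1 and 14.3 CPM in VAChT:VGlut libraries, against 19.96 and 19.3 CPM in VAChT:VGAT libraries. Neither robo2 nor robo3 overlapped between genotypes, which held in the lower direction for 25.6% of all genes tested. The ligand was the most abundant of the group in every library. sli was between 1.597 and 2.03 times as high as robo1 per kilobase, between 1.73 and 2.21 times as high as robo3, and between 13.1 and 18.7 times as high as robo2.

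The Netrin group showed the widest range of fitted differences, and none passed. NetA, a secreted netrin, had 16 and 16 counts in VAChT:VGlut libraries, against 23 and 12 counts in VAChT:VGAT libraries. Scaled for depth, NetA had 8.04 and 6.36 CPM in VAChT:VGlut libraries, against 11.8 and 7.99 CPM in VAChT:VGAT libraries. The lower VAChT:VGAT value lies just below the higher VAChT:VGlut value, so the genotypes overlap narrowly. For NetA the log2 fold change was -0.50, with an SE of 0.37 and a 95% interval from -1.24 to 0.24 (adjusted p = 0.47, edgeR), so a difference of this size was not detectable at this depth. NetB, the second netrin, had 133 and 140 CPM in VAChT:VGlut libraries, against 126 and 125 CPM in VAChT:VGAT libraries, with a log2 fold change of 0.12 (SE 0.10, adjusted p = 0.50, edgeR). NetB was between 4.40 and 9.03 times as high as NetA per kilobase.

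The netrin receptors fra and unc-5 lay higher in both VAChT:VGlut libraries, as did 23.6% of all genes tested, and neither passed. fra, the attractive receptor, had 56.3 and 57.6 CPM in VAChT:VGlut libraries, against 50.7 and 47.3 CPM in VAChT:VGAT libraries, and a log2 fold change of 0.21 (SE 0.15, adjusted p = 0.45, edgeR). unc-5, the repulsive receptor, had 71.4 and 71.1 CPM in VAChT:VGlut libraries, against 61.4 and 63.3 CPM in VAChT:VGAT libraries, and a log2 fold change of 0.19 (SE 0.14, adjusted p = 0.44, edgeR). Their balance differed little between libraries, with fra at 0.619 to 0.683 of unc-5 per kilobase.

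The remaining adhesion genes had no call. The fasciclins Fas2 and Fas3, Nrg (the fly L1 protein), Nrt and klg had log2 fold changes between -0.21 and 0.21 with a median of 0.04. kirre, rst, hbs and sns, the irre cell recognition module, lay between 0.05 and 0.33 with a median of 0.09. rst was the highest of these with a wide 95% interval of -0.05 to 0.71, and kirre was between 3.06 and 4.63 times as high as rst per kilobase. Ptp69D, a receptor tyrosine phosphatase, had a log2 fold change of 0.26 (SE 0.15, adjusted p = 0.31, edgeR).

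Of the 52 members tested and not called, 33 had fitted values above 0 and 19 below. The 95% interval lay within 0.5 on the log2 scale on either side of 0 in 41 of them and reached beyond it in 11. Over all 60, 41 were above 0, which is 68.3%, against 48.8% of all genes tested. Both VAChT:VGlut libraries lay above both VAChT:VGAT libraries in 25 members (41.7%), against 23.6% of all genes. Both lay below in 10 members (16.7%), against 25.6% of all genes. The median log2 fold change of the members was 0.10, against -0.01 over all genes, and it was 0.06 with library size as the only scaling. The summed level of the 62 genes was 10196 and 10372 CPM in VAChT:VGlut libraries, against 9568 and 9576 CPM in VAChT:VGAT libraries.

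**Figure D3:**
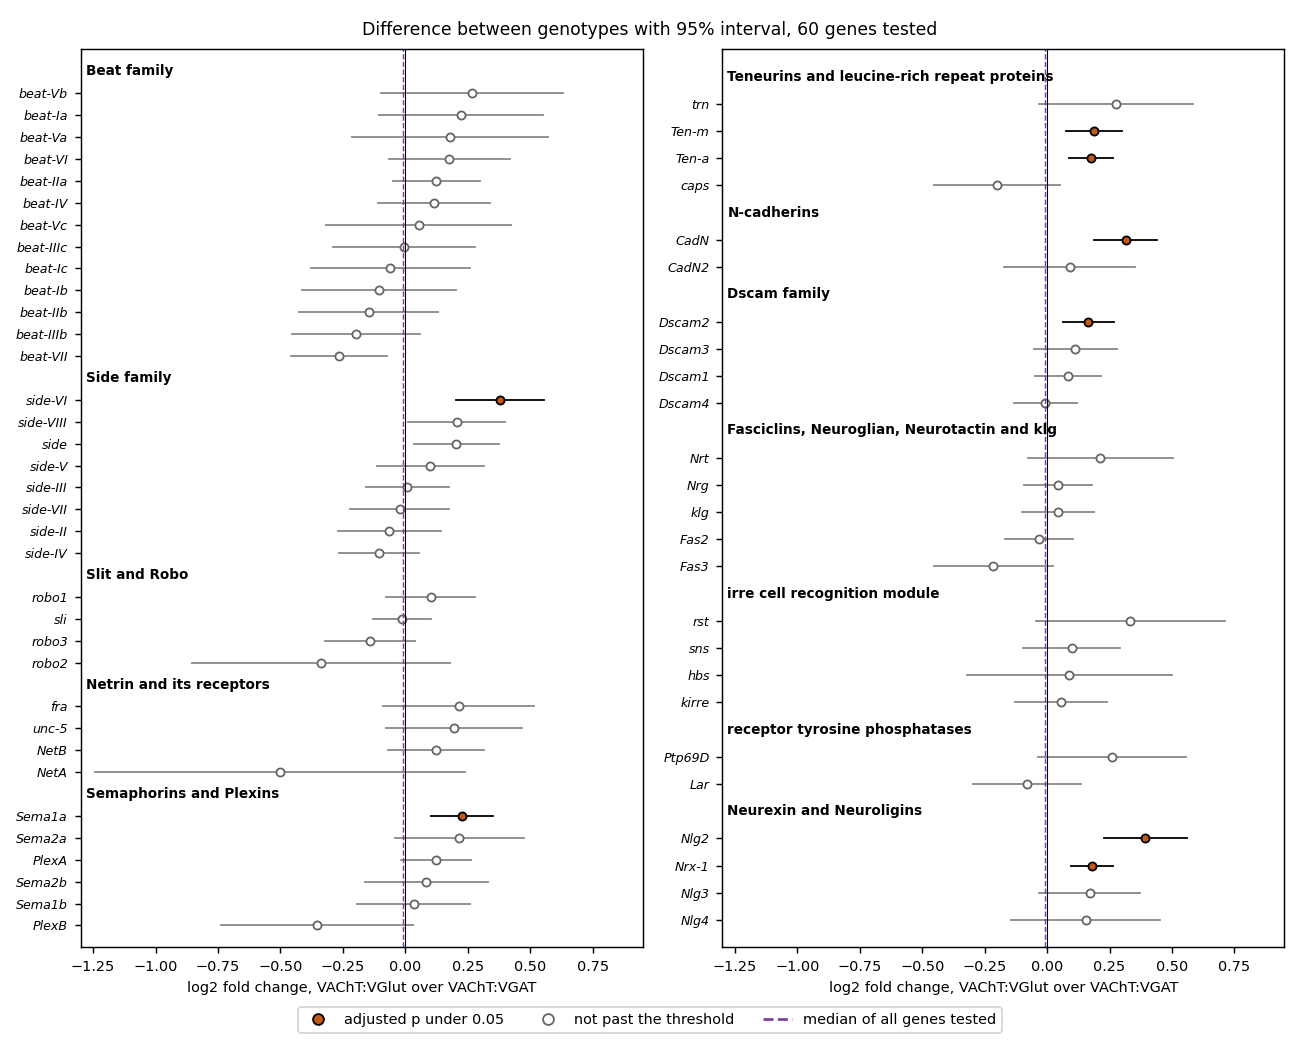
Log2 fold change of VAChT:VGlut over VAChT:VGAT for the 60 genes tested, by role, with 95% intervals. Filled symbols mark the 8 genes at an adjusted p under 0.05, all to the right of 0, and the dashed line marks the median of all genes tested (-0.01). The widest interval is that of NetA, from -1.24 to 0.24.

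A property that the choice by symbol did not use is gene size. The median exonic length of the members was 6072 bases, against 2319 bases over all genes tested. Their median span in the genome was 40.8 kb, against 3.29 kb, and it reached 394 kb in kirre. The called members were longer still, with a median exonic length of 11803 bases, against 5493 bases in members not called. They were also more abundant, with mean levels between 162 and 874 CPM, against 8.54 to 403 CPM in members not called. The test is more sensitive in genes with more counts, so length and level are not independent of a call. The SE was 0.04 to 0.09 in called members and 0.06 to 0.37 in members not called.

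Over all genes, the fold change moved with exonic length. In 4 groups of equal size from short to long, the median log2 fold change was -0.14, -0.07, 0.02 and 0.10. Of the members, 47 fell in the longest group, of 3928 bases or more. In that group 19.3% of all genes were called, 17.2% as higher and 2.09% as lower, and 8 of the 47 members (17.0%) were called. The median log2 fold change there was 0.10 for the members and 0.10 for all genes, so these 47 members lay where other long genes lay. For the shorter members the medians lay above those of genes of like length, but single members lay on either side. The 11 members of 2320 to 3927 bases had a median of 0.12, against 0.02 for all genes of that group. They ranged from -0.50 in NetA to 0.28 in trn. Of these, beat-IIIb, beat-IIIc, beat-IIb, beat-Ib and NetA lay below 0.02 and the others above it. The 2 members of 1423 to 2319 bases had a median of 0.16, against -0.07. None of these shorter members was called.

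With the trend on exonic length removed, 3 members passed the threshold and the members' median was -0.003, against 0.01 for all genes. Nlg2 (log2 fold change 0.31, adjusted p = 0.0073) and side-VI (0.27, adjusted p = 0.045) were still higher in VAChT:VGlut nuclei, and beat-VII was lower (-0.35, adjusted p = 0.0095, edgeR). The calls of CadN (0.13, adjusted p = 0.24), Nrx-1 (0.03, adjusted p = 0.79), Sema1a (0.08, adjusted p = 0.55) and Ten-m (0.01, adjusted p = 0.94) were lost in edgeR. Ten-a and Dscam2 also lost their calls and had fitted values just below 0. The part of the length trend in the calls was not tested further.

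**Figure D4:**
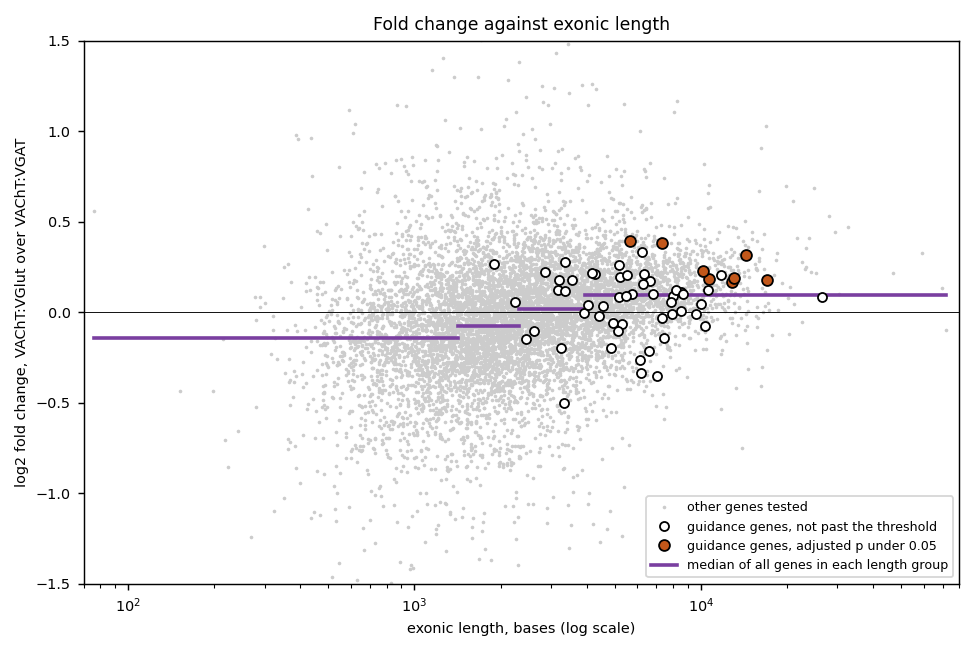
Log2 fold change of VAChT:VGlut over VAChT:VGAT against exonic length in bases (log axis). Grey points are other genes tested, of which 32 lie outside the plotted range, open circles are guidance genes not past the threshold, filled circles are the 8 that passed, and horizontal lines are medians of all genes in 4 length groups. The lines step up from -0.14 to 0.10, and all 8 filled circles lie in the longest group.

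Members lay on all major chromosome arms, with 19 on 3R, 15 on 2L, 12 on 2R, 7 on 3L, 7 on X and 2 on the small chromosome 4. In 13 pairs, which involve 22 members, the spans were within 100 kb of each other. Where both neighbours had counts, their levels differed between 1.10-fold and 25.2-fold per kilobase. Nlg3 and Nlg1 are 18.8 kb apart and differed 25.2-fold per kilobase, and NetA and NetB are 32.1 kb apart and differed 6.28-fold. rst lies inside the span of kirre on the opposite strand. Members of the beat-I trio, by contrast, were within 2.02-fold of each other, and Sema2a and Sema2b within 1.10-fold.

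A list of 57 further genes of guidance and adhesion, none of them a member, was tested in the same fit. It had 7 genes called, all higher in VAChT:VGlut nuclei, and a median log2 fold change of 0.09. The share of 12.3% stands against 11.8% of all genes called in either direction and 6.22% called higher. The median exonic length of the list was 5312 bases, and of all genes of 3928 bases or more 17.2% were called higher. Of the 57, 39 were above 0 and 18 below. The count of 7 was 4 without the first VAChT:VGlut library, 3 without the second, 4 without the first VAChT:VGAT library and 5 without the second, and it was 1 with DESeq2. The calls fell on 2 of 19 signalling effectors, 3 of 19 other ligands and receptors and 2 of 19 other adhesion molecules.

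Among the effectors, dlg1, a synaptic scaffold, had 601 and 640 CPM in VAChT:VGlut libraries, against 522 and 508 CPM in VAChT:VGAT libraries. Its log2 fold change was 0.27 (SE 0.05, adjusted p = 4.3e-05, edgeR). Liprin-alpha, an active zone protein that binds Lar, had 128 and 134 CPM in VAChT:VGlut libraries, against 96.7 and 107 CPM in VAChT:VGAT libraries. In neither gene did the genotypes overlap, and the log2 fold change of Liprin-alpha was 0.37 (SE 0.10, adjusted p = 0.0084, edgeR). Liprin-alpha did not pass without the second VAChT:VGlut (adjusted p = 0.14) or first VAChT:VGAT library (0.22), whereas dlg1 passed with any library left out.

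Among the receptors, stan, the seven-pass cadherin Flamingo, had 138 and 127 CPM in VAChT:VGlut libraries, against 102 and 94.6 CPM in VAChT:VGAT libraries. Its log2 fold change was 0.41 (SE 0.10, adjusted p = 0.0032, edgeR). Drl-2, a receptor of the Derailed family for Wnt5, had 115.1 and 109 CPM in VAChT:VGlut libraries, against 84.4 and 90.6 CPM in VAChT:VGAT libraries, and a log2 fold change of 0.36 (adjusted p = 0.023, edgeR). In both receptors the genotypes did not overlap. The third was the proteoglycan Sdc (0.15, adjusted p = 0.039, edgeR). stan did not pass without the first VAChT:VGlut library (adjusted p = 0.066), and Drl-2 did not pass without either VAChT:VGlut library (0.14 and 0.086) or the first VAChT:VGAT library (0.25).

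Of the adhesion molecules, kek1, a leucine-rich repeat protein, had 169 and 181 CPM in VAChT:VGlut libraries, against 147 and 133 CPM in VAChT:VGAT libraries, and a log2 fold change of 0.32 (adjusted p = 0.0096, edgeR). Fas1 was the most abundant, with 3596 and 3605 CPM in VAChT:VGlut libraries, against 3392 and 3394 CPM in VAChT:VGAT libraries. Its difference was small, with a log2 fold change of 0.09 (SE 0.03, adjusted p = 0.026, edgeR). kek1 did not pass without the second VAChT:VGlut (adjusted p = 0.21) or second VAChT:VGAT library (0.13). Fas1 did not pass without either VAChT:VGAT library (0.21 and 0.16) or with library size as the only scaling (0.27). With the trend on exonic length removed, none of these 7 passed.

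Markers of whole cell types moved with the same contrast. Rose and fell stand here for an adjusted p under 0.05 in edgeR, which held for 6.22% and 5.54% of all genes tested. All 6 neuron markers rose, with a summed level of 11556 and 11699 CPM in VAChT:VGlut libraries, against 9774 and 9874 CPM in VAChT:VGAT libraries, and a median log2 fold change of 0.24. Of the 9 photoreceptor markers, 8 rose, and all 9 had fitted values above 0. They summed to 29860 and 30019 CPM in VAChT:VGlut libraries, against 23694 and 23914 CPM in VAChT:VGAT libraries, with a median of 0.33. All 6 muscle markers rose, with 1235 and 1225 CPM in VAChT:VGlut libraries, against 881 and 884 CPM in VAChT:VGAT libraries, and a median of 0.48. These 3 lists had medians above that of the 60 guidance genes. Of the 8 glia markers, 4 fell, and 7 had fitted values below 0. They summed to 1990 and 1904 CPM in VAChT:VGlut libraries, against 2479 and 2495 CPM in VAChT:VGAT libraries, with a median of -0.26. All 5 fat body markers fell, with 27857 and 27250 CPM in VAChT:VGlut libraries, against 33719 and 33785 CPM in VAChT:VGAT libraries, and a median of -0.35. With the trend on exonic length removed, the medians were 0.09 for neuron, 0.30 for photoreceptor, 0.40 for muscle, -0.27 for glia and -0.29 for fat body markers. The neuron markers Syt1, brp, cpx and elav, the photoreceptor marker chp, the muscle markers bt and sls and the fat body marker Lsp2 then no longer passed. No marker of these lists was at 0. The part of these shifts in the guidance gene differences was not tested.

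**Figure D5:**
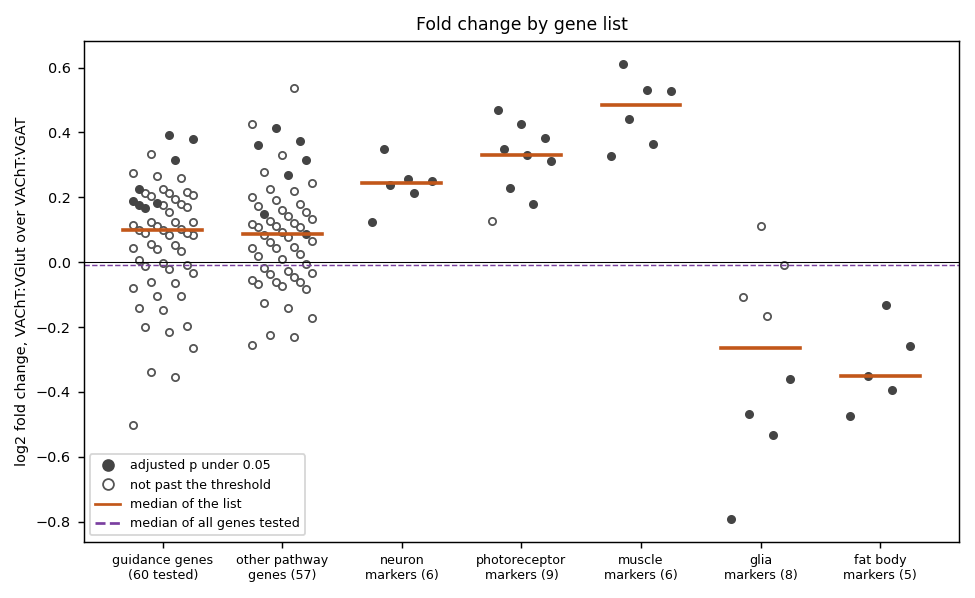
Log2 fold change of VAChT:VGlut over VAChT:VGAT for each gene of 7 lists, with filled points for an adjusted p under 0.05 and orange lines at list medians. The guidance genes (median 0.10) and other pathway genes (0.09) lie between the neuron (0.24), photoreceptor (0.33) and muscle (0.48) markers above and the glia (-0.26) and fat body (-0.35) markers below.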

How the data were processed

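The deposited table holds raw counts per gene for 4 libraries and the exonic length of each gene. Per the file headers, the authors counted read pairs over exons of the dm6 refGene annotation with featureCounts 1.5.1, reverse strand. The submitters' processing notes also name fastp, STAR and DESeq2. Removal of duplicates is not given in the sources used here.

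filterByExpr with a minimum count of 10 and a minimum total of 15 left 8246 genes. In R 4.3.3, edgeR 4.0.16 fitted them by quasi-likelihood (F test), with TMM scaling and genotype as the only term. P-values were adjusted over all of them by the Benjamini-Hochberg method, with a threshold of 0.05. Log2 fold changes have VAChT:VGlut on top. CPM are computed from the deposited counts over TMM-scaled library sizes. The length trend was removed with a loess curve of log2 fold change on exonic length (span 0.5). Alternatives used other scalings and filters, DESeq2 1.42.0, limma-voom (limma 3.58.1), a fixed variation, a replicate block and each library left out. Counts of the same design were simulated with the dispersion fitted to these libraries, and changes were placed only in genes above 20 CPM. On them edgeR recovered 94% of 2-fold changes and 41% of changes of 0.5 on the log2 scale, and called 1 of 8046 unchanged genes. These rates do not cover changes in lower genes such as NetA and robo2, or a spread beyond that of these libraries.

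All 62 members matched a FlyBase identifier, and 60 spans equal those of the Ensembl BDGP6 gene. Members and lists were chosen with earlier results of these data known. Named are all called members, 11 members fixed by name, the 6 called pathway genes with the smallest p, and the rest by role. beat-VII and Sdc were named after their values were seen. Other genes given with values of their own, such as Nlg3, Nlg4, CadN2, PlexB, side-VIII, trn, caps, rst, Ptp69D and Abl, were not fixed by name beforehand either. Replicate numbers did not pair the libraries.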

Additional observations from a re-analysis of the deposited data

How the results depend on the processing

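The 8 calls among the members and their direction were the same with the size factors of DESeq2, with no filter and with limma-voom. With DESeq2, 4 of the 8 passed (CadN, Nlg2, Nrx-1 and Ten-a), and 17 members had no adjusted p. The count was 3 with the length trend removed (2 of them among the 8) and 0 with a biological coefficient of variation of 0.1 set for every gene. It ranged from 5 to 7 with 1 library left out, and CadN, Nlg2 and Nrx-1 passed in every such fit. Without VAChT:VGlut replicate 1 it was 7, without VAChT:VGlut replicate 2 it was 5, and without either VAChT:VGAT replicate it was 5. Sema1a was lost without 3 of the 4 libraries. The pathway list had 7 genes called, 1 with DESeq2, 1 with the length trend removed (Abl, lower and not among the 7), 0 with this fixed coefficient and 3 to 5 with a library left out. All genes gave 970 calls, 370 with DESeq2, 628 with the length trend removed, 186 with this fixed coefficient and 513 to 738 with a library left out. The fitted coefficient was 2.18%, so calls of small folds rest on libraries that vary little. The members' median of 0.0992 was 0.0639 with library size only, 0.0819 with a mean count of at least 50 and -0.0034 with the length trend removed. With that trend removed, Dscam1 (-0.157), Dscam2 (-0.00676), Ten-a (-0.0227) and robo1 (-5.38e-05) changed sign. With a library left out, robo1 ranged from -0.0348 to 0.219 and sli from -0.0631 to 0.0376. Over 24 named genes, 244 of 311 values under alternatives kept their direction and side of the threshold. 57 were no longer past it, 3 were newly past it and 7 had the other sign.

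Same-numbered libraries did not deviate together (correlation -0.029 across genes). With the replicate number as a block, 8 members, 8 pathway genes and 1049 of all genes passed, and the members' median was 0.101. Depth limits NetA, Nlg1 and robo2. In edgeR, 0 genes passed between replicate numbers, with 438 at an unadjusted p under 0.05.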
